A study of Mus musculus with 7 samples.

Results

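Interferon-stimulated genes were examined in erythroblasts that lack manganese superoxide dismutase (Sod2), the enzyme that removes superoxide in the mitochondrial matrix. The set comprises 45 genes chosen by name for their known induction by interferon, with earlier results of these data known. Of these, 41 had a probe set that the array annotation assigns to that gene alone, out of 18193 such genes on the array. Where a gene had several, the probe set with the highest mean over the 7 arrays was used. Isg15 and Tgtp1 were measured only by a probe set that another gene shares, and they are described apart. Oas1g and Ifi44 were not analysed here.

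RNA was hybridized to Affymetrix mouse genome arrays, on which a probe set measures part of a transcript, and the deposited values are on a log2 scale. Sod2-/- erythroblasts were measured on 3 arrays, with the replicate numbers 31, 35 and 39, and Sod2+/+ erythroblasts on 4 arrays, with the numbers 17, 29, 33 and 37. Donor cells of both genotypes were fetal liver cells of littermates from matings of mice heterozygous for the B6-Sod2tm1Cje allele, taken at embryonic day 13.5 to 16.5. They were injected into irradiated C57BL/6 hosts congenic for Ly5.1, aged 11 to 15 weeks, and TER-119+ CD71+ cells were later sorted from the marrow of both groups. The sources used here do not say that erythroblasts of host origin were removed. They call the arrays of a genotype biological replicates without tying each to its own mouse, and any p-value given below reflects the scatter among the 7 samples alone, which may be technical. A further Sod2-/- array was not analysed here.

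Interferons are secreted cytokines that bind cell surface receptors coupled to the kinases Jak1, Jak2 and Tyk2. The signal leads to transcription factor complexes, among them complexes that contain IRF9, which bind the interferon-stimulated response element (ISRE) or the gamma-activated sequence (GAS) in the promoters of target genes. The targets include proteins that block viral replication, cytosolic sensors of viral RNA, the transcription factors that drive the response itself, and enzymes that attach or remove ISG15 and ubiquitin. Many are also expressed at a basal level in cells that have not met a virus, and several are abundant in leukocytes.

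The promoters of the set carry these elements, and the stretches that hold them are shown for members that differed between the genotypes and for close relatives that did not. RefSeq windows of GRCm38.p6, from 250 bases before to 50 bases after the start of the gene, were found for 36 of the 45 genes. The ISRE core was searched on both strands as GAAA followed after any 2 bases by a second GAAA, which reads as TTTC, 2 bases and TTTC on the opposite strand. It was present in 20 of 36 windows (55.6%), against 523 of 14368 windows of the array's genes (3.64%). The GAS core, TTCNNNGAA, which reads the same on both strands, was present in 13 of 36 (36.1%), against 1231 of 14368 (8.57%). Matches may overlap each other. Since the genes were chosen as interferon targets, these shares only describe the set.

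Ifit1 and Ifit3 are neighbours on chromosome 19 and each holds 2 ISRE cores, in capitals, upstream of the start (chr19:34640769-34640823, plus strand, and chr19:34583364-34583426, plus strand). They are shown together because Ifit1 was lower in Sod2-/- erythroblasts and Ifit3 did not pass the test described further on.
Ifit1: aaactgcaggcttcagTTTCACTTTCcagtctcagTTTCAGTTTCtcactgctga
Ifit3: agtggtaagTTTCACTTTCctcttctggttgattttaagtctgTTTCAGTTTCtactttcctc
Both stretches contain the same pair of cores in the same order, TTTCACTTTC and then TTTCAGTTTC. Ifit3 and the GTPase promoters below were selected for display after their values were known.

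The other lower members with an ISRE core are Lgals9 (chr11:78984950-78984999, minus strand), Ifih1 (chr2:62646206-62646233, minus strand) and Ifitm3 (chr7:141010715-141010744, minus strand). The ISRE core is again in capitals. In Ifih1 and Ifitm3 it lies just after the start, in the first bases of the transcript. The window of Lgals9 holds another ISRE core, 16 bases after the start and outside the stretch shown. The Ifitm3 stretch also holds a GAS core, 14 bases after the start, which overlaps an ISRE core and is not marked by capitals.
Lgals9: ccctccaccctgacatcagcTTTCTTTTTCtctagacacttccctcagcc
Ifih1: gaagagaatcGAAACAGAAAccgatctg
Ifitm3: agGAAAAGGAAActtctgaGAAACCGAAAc

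Tgtp1 (chr11:48992304-48992344, minus strand), Igtp (chr11:58199501-58199541, plus strand) and Irgm2 (chr11:58214892-58214932, plus strand) encode immunity-related GTPases. Their stretches hold a GAS core and, 2 bases further on, an ISRE core, both in capitals.
Tgtp1: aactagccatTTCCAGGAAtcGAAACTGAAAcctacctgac
Igtp: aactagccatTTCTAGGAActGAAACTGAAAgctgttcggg
Irgm2: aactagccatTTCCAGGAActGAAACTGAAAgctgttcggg
The Igtp and Irgm2 stretches share 40 of 41 bases, and Tgtp1 shares 31 of 41 with Igtp and 32 of 41 with Irgm2.

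In Sod2-/- erythroblasts, 8 of the 41 interferon-stimulated genes were lower than in Sod2+/+ erythroblasts and 0 were higher. The 8 were Ifit1, Lgals9, Ifitm3, Irf8, Ifih1, Lgals3bp, Dhx58 and Oasl1, and 7 of them, all but Oasl1, were lower by at least 1.5-fold, against 2.8% of all genes. They comprise effectors against viruses, cytosolic RNA sensors, a transcription factor of the interferon regulatory factor family and a galectin with a galectin-binding protein. The other 33 members did not pass the test in either direction. Of all 41, 33 had a log2 difference below 0 and 8 above it, against 45.8% of all genes below 0 and 54.3% of genes above the median log2 value of all probe sets. In bulk samples such as these, fewer cells of a type and less RNA per cell cannot be told apart.

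A call was an adjusted p under 0.05 by limma, adjusted by Benjamini-Hochberg over the 45037 probe sets tested. The share of members called lower was 19.5%, against 4.47% of all 18193 genes, and 0.412% of all genes were called higher. Since the members were chosen with earlier results of these data known, their shares only describe the set. All Sod2-/- values lay below all Sod2+/+ values for 15 members, against 14.8% of all genes, and above them for 1 member, against 7.19% of all genes. At an unadjusted p under 0.05, limma gave 19 members lower and 2 higher, against 18.4% of all genes lower and 6.68% higher. The median log2 difference of the members (Sod2-/- minus Sod2+/+, as throughout) was -0.30, with a range from -1.21 to 0.32, and the median of all genes was 0.02. Of the 41 members, 35 lay above the median log2 value of all probe sets, 4.48. Among these 35 the median difference was -0.38 and 22.9% were lower, against -0.03 and 6.73% of the 11963 genes above that level. None of the 6 dimmer members (Ifit2, Mx1, Mx2, Iigp1, Gbp2 and Gbp3) was called, and their median difference was -0.03.

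The count depended on which arrays were included. Without Sod2-/- array 35, limma called 0 members lower (16 at an unadjusted p under 0.05), and 0.352% of all genes. Without Sod2-/- array 39 it called 4 (1.3% of all genes), without Sod2+/+ array 17 it called 4 (2.31%), without Sod2+/+ array 29 it called 3 (0.786%) and without Sod2+/+ array 37 it called 3 (0.605%). Leaving out Sod2-/- array 31 gave 10 (3.63% of all genes) and leaving out Sod2+/+ array 33 gave 8 (4.09%). Averaged over the 41 members, the deviation from the Sod2+/+ mean of each gene was -0.24, -0.43 and -0.35 on Sod2-/- arrays 31, 35 and 39, and 0.01, 0.08, -0.13 and 0.04 on Sod2+/+ arrays 17, 29, 33 and 37. The 3 Sod2-/- arrays were thus below the 4 Sod2+/+ arrays, with array 35 the lowest. Array 35 had the lowest value of all 7 for 19 of the 41 members.

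**Figure D1:**
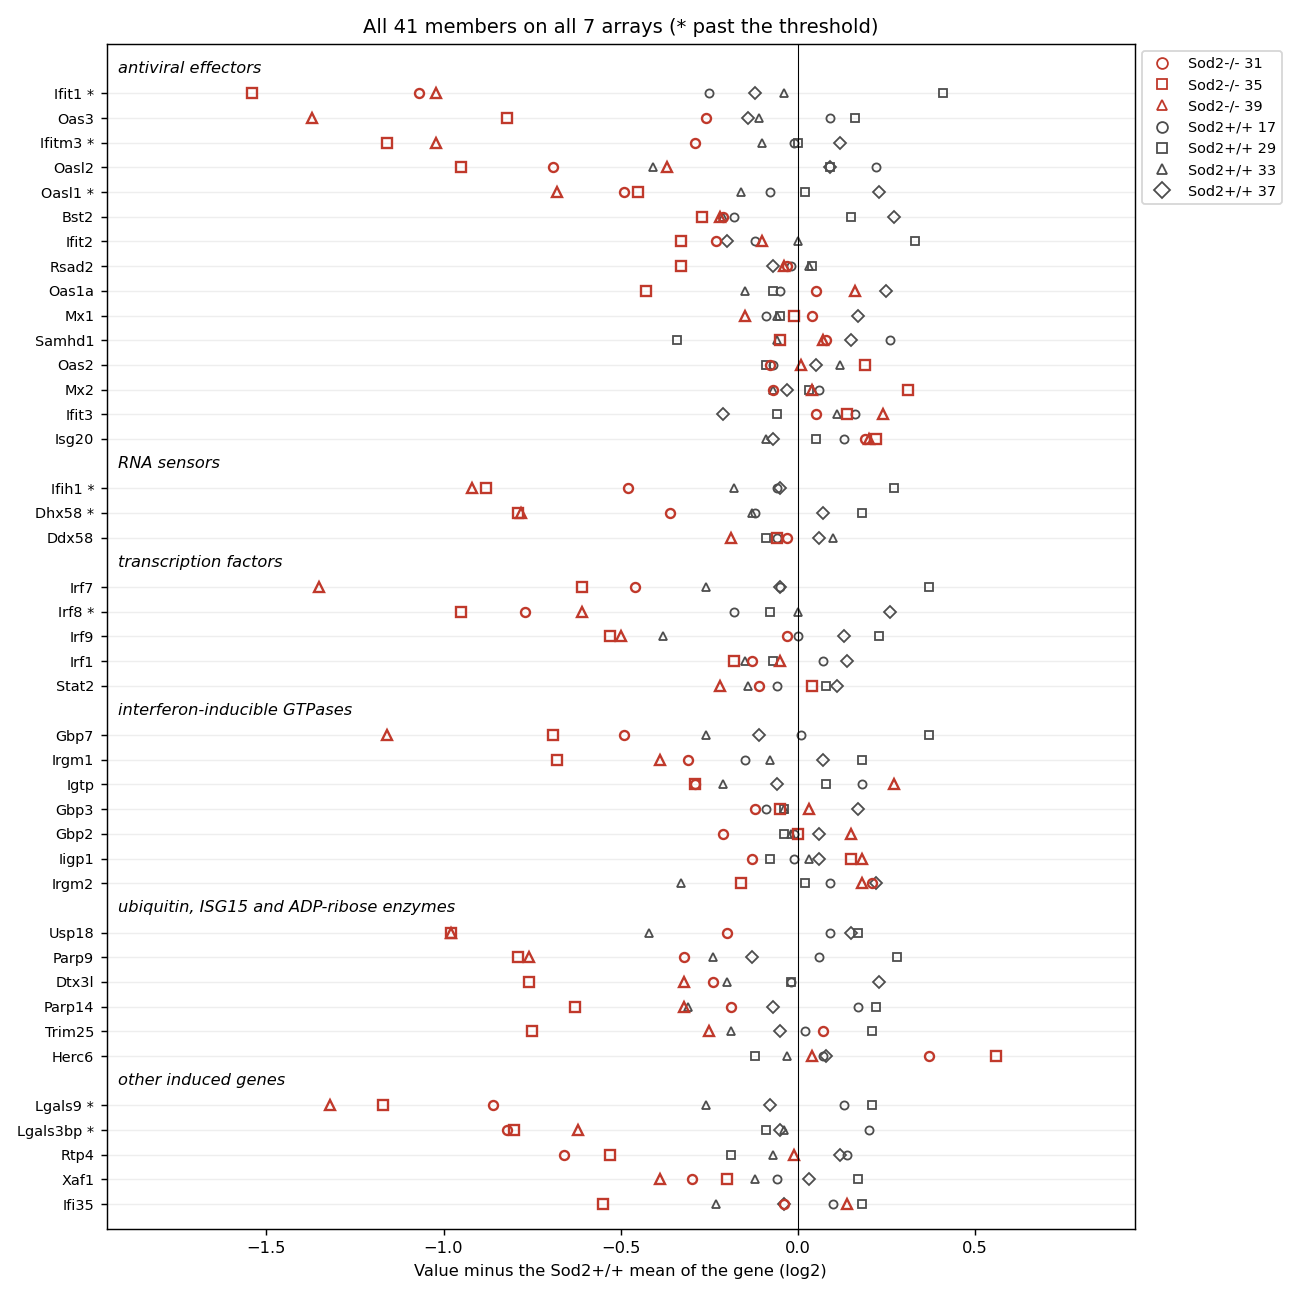
Log2 value of every member on every array minus the mean of the 4 Sod2+/+ arrays for that gene, with the members grouped by role down the page. Red symbols are the 3 Sod2-/- arrays, grey symbols the 4 Sod2+/+ arrays, and an asterisk marks the 8 members past the threshold of adjusted p under 0.05. The red symbols of Ifit1, Lgals9 and Ifih1 stand left of all grey ones, and those of Mx1, Gbp2 and Gbp3 overlap the grey ones.

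Among the antiviral effectors, 15 of 17 were measured, 3 were lower (Ifit1, Ifitm3 and Oasl1) and 12 did not pass, with a median log2 difference of -0.13. Ifit1 encodes a protein that binds viral RNA lacking the methylation of host messages. Its log2 values were 5.69, 5.22 and 5.74 in Sod2-/- erythroblasts and 6.51, 7.17, 6.72 and 6.64 in Sod2+/+ erythroblasts. All 3 Sod2-/- values lay below the lowest Sod2+/+ value. Sod2-/- erythroblasts averaged 5.55 ± 0.28 (SD, n = 3), against 6.76 ± 0.29 (SD, n = 4) for Sod2+/+ erythroblasts. The difference was -1.21 ± 0.18 (SE), a 2.32-fold lower level (adjusted p = 0.0187). The adjusted p was 0.0588 without Sod2-/- array 35 and 0.0502 without Sod2+/+ array 37, and from 0.0287 to 0.037 without any other array.

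Ifitm3, a membrane protein that hinders the fusion of enveloped viruses, had log2 values of 9.50, 8.63 and 8.77 in Sod2-/- and 9.78, 9.79, 9.69 and 9.91 in Sod2+/+ erythroblasts. The Sod2+/+ values were close together, and Sod2-/- array 31 stood nearer to them than arrays 35 and 39 did. The log2 difference was -0.82 ± 0.18 (SE, 1.77-fold lower, adjusted p = 0.0499). It was -0.29 between the arrays of fluidics station 1 (Sod2-/- 31 against Sod2+/+ 17 and 29) and -1.09 between those of station 2 (Sod2-/- 35 and 39 against Sod2+/+ 33 and 37). The call was lost when any array other than Sod2-/- 31 was left out, with adjusted p from 0.0718 to 0.154, and also with station as a block (adjusted p = 0.0629).

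Oasl1, a member of the oligoadenylate synthetase-like family that restrains the translation of Irf7 in mice, had log2 values of 5.95, 5.99 and 5.76 in Sod2-/- and 6.36, 6.46, 6.28 and 6.67 in Sod2+/+ erythroblasts. The genotypes did not overlap, and the log2 difference was -0.54 ± 0.11 (SE, 1.46-fold lower, adjusted p = 0.0362). That call remained only when Sod2+/+ array 33 was left out, and without any other array the adjusted p was between 0.0583 and 0.0936. With station as a block it was 0.0611.

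Genes of the same cluster gave unlike values. On chromosome 19, the log2 difference was -1.21 for Ifit1, -0.22 ± 0.13 (SE) for Ifit2 and 0.14 ± 0.10 (SE) for Ifit3, whose adjusted p were 0.382 and 0.491 for Ifit2 and Ifit3. Ifit3 had log2 values of 5.68, 5.77 and 5.87 in Sod2-/- and 5.79, 5.57, 5.74 and 5.42 in Sod2+/+ erythroblasts, and the genotypes overlapped. Among the oligoadenylate synthetases of chromosome 5, which make the second messenger that activates RNase L, Oas3 gave -0.82 ± 0.22 (SE, adjusted p = 0.0856), Oas2 gave 0.04 ± 0.09 (SE) and Oas1a gave -0.07 ± 0.15 (SE). Oas3 had log2 values of 8.59, 8.03 and 7.48 in Sod2-/- and 8.94, 9.01, 8.74 and 8.71 in Sod2+/+ erythroblasts, which did not overlap but were widely spread in Sod2-/-. The related Oasl2, also on chromosome 5, gave -0.67 ± 0.17 (SE, adjusted p = 0.0767). The differences between members of a cluster were not tested.

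The remaining effectors did not pass and had log2 differences between -0.24 and 0.20. They were Bst2 (tetherin, which holds budding virions at the cell surface), Mx1 and Mx2 (dynamin-like GTPases), Rsad2 (viperin), Samhd1 (which depletes deoxynucleotides) and Isg20 (an exonuclease). Isg20 was 1 of 8 members above 0 and the single member whose Sod2-/- values, 12.26, 12.29 and 12.27, all lay above the Sod2+/+ values of 12.20, 12.12, 11.98 and 12.00. Its log2 difference of 0.20 ± 0.07 (SE) had an adjusted p of 0.18. Rsad2 had log2 values of 12.24, 11.94 and 12.23 in Sod2-/- and 12.25, 12.31, 12.30 and 12.20 in Sod2+/+ erythroblasts, with a difference of -0.13 ± 0.09 (SE, adjusted p = 0.472). Its other probe sets gave -0.28 and 0.11. The other probe sets of Samhd1 gave values from -0.29 to 0.19. The probe set that measures Isg15, the ubiquitin-like modifier, together with Gm9706 gave 8.94, 8.59 and 8.99 in Sod2-/- and 9.46, 9.37, 8.87 and 9.08 in Sod2+/+ erythroblasts, a difference of -0.35 ± 0.16 (SE, adjusted p = 0.254).

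**Figure D2:**
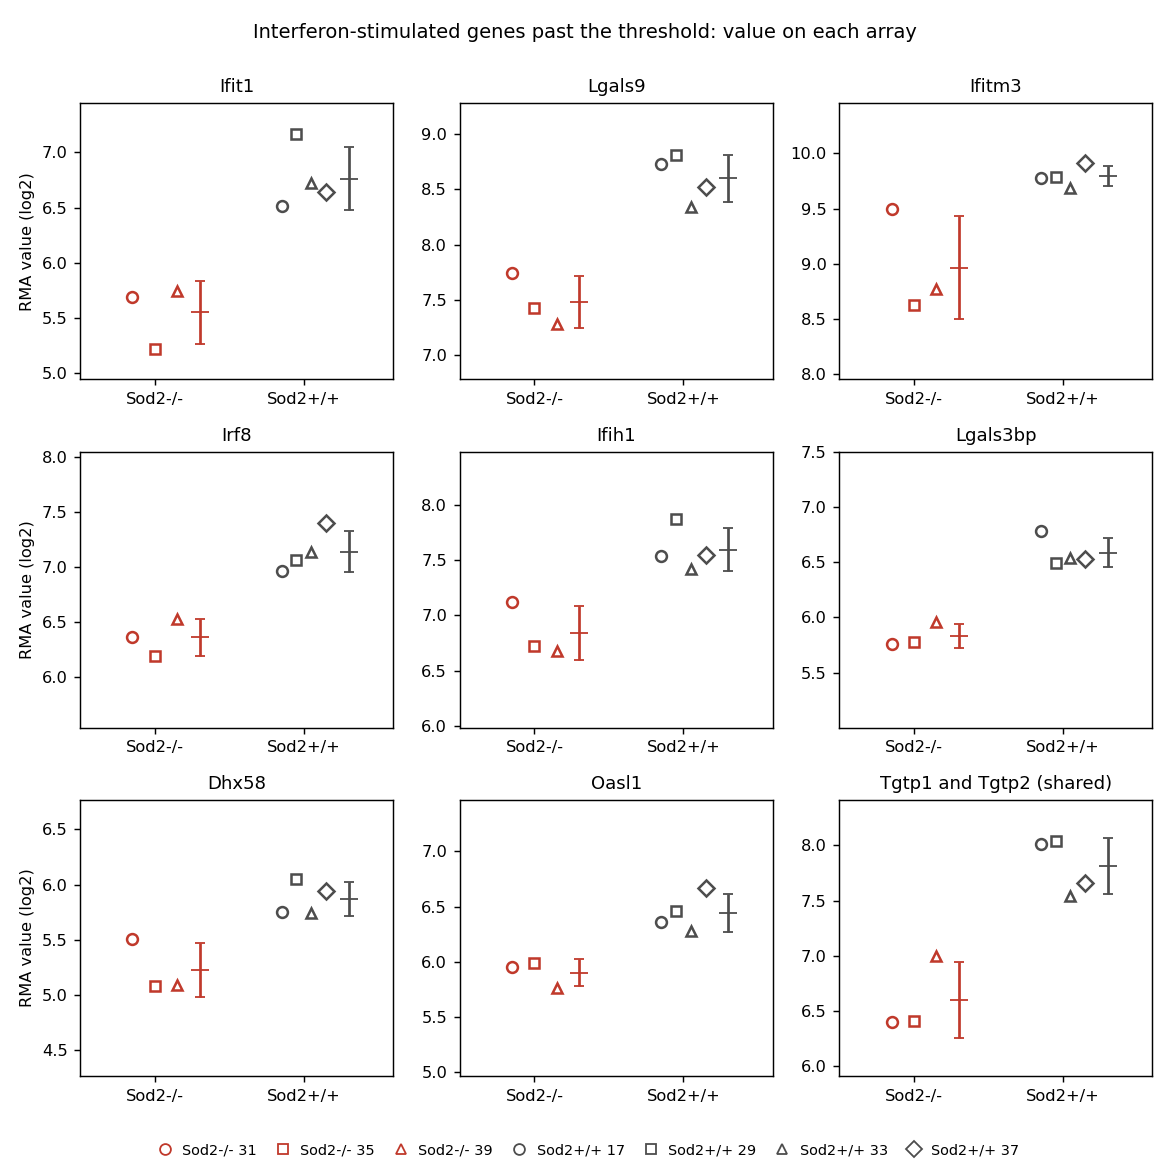
RMA log2 value on each array for the 8 members past the threshold and for the probe set shared by Tgtp1 and Tgtp2, with Sod2-/- arrays in red at the left and Sod2+/+ arrays in grey at the right of each panel. Symbols mark the arrays, and the bar beside each group is the mean with its SD (n = 3 for Sod2-/-, n = 4 for Sod2+/+). Every panel spans the same log2 range, and in no panel do the genotypes overlap.

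Of the 3 cytosolic RNA sensors, 2 were lower. Ifih1 (MDA5), the sensor of long double-stranded RNA, had log2 values of 7.12, 6.72 and 6.68 in Sod2-/- and 7.54, 7.87, 7.42 and 7.55 in Sod2+/+ erythroblasts. Dhx58 (LGP2), a regulator of the other sensors that lacks their signalling domain, had log2 values of 5.51, 5.08 and 5.09 in Sod2-/- and 5.75, 6.05, 5.74 and 5.94 in Sod2+/+ erythroblasts. Neither gene overlapped between the genotypes, and for both Sod2-/- array 31 was the highest of the Sod2-/- arrays. The log2 difference was -0.76 ± 0.14 (SE, 1.69-fold lower, adjusted p = 0.0289) for Ifih1 and -0.64 ± 0.13 (SE, 1.56-fold lower, adjusted p = 0.0372) for Dhx58. Without Sod2-/- array 31 or Sod2+/+ array 33 both calls remained, and both were lost without any other array, with adjusted p between 0.0538 and 0.128. The dimmer probe sets of Dhx58, both below the median of all probe sets, gave 0.06 and -0.10. Ddx58 (RIG-I), the sensor of viral RNA ends, did not pass, with a difference of -0.09 ± 0.08 (SE, adjusted p = 0.562).

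Among the 5 transcription factors, Irf8 was lower and the other 4 did not pass, with a median log2 difference of -0.35. Irf8 directs the development of monocytes, dendritic cells and B cells in addition to its part in the interferon response. It had log2 values of 6.37, 6.19 and 6.53 in Sod2-/- and 6.96, 7.06, 7.14 and 7.40 in Sod2+/+ erythroblasts. The genotypes did not overlap, and the log2 difference was -0.77 ± 0.12 (SE, 1.71-fold lower, adjusted p = 0.0223). The second Irf8 probe set was also lower, by -0.91 ± 0.16 (SE, adjusted p = 0.0278). The adjusted p of the first probe set was 0.0773 without Sod2-/- array 35 and 0.0529 without Sod2+/+ array 29.

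Irf7, the factor that amplifies interferon production, had log2 values of 7.57, 7.42 and 6.68 in Sod2-/- and 7.98, 8.40, 7.77 and 7.98 in Sod2+/+ erythroblasts. No Sod2-/- value reached the Sod2+/+ range, but array 39 lay well apart from arrays 31 and 35, and the difference of -0.81 ± 0.22 (SE) did not pass (adjusted p = 0.0839). Irf9, the DNA-binding subunit of the complex that recognizes the ISRE, gave -0.35 ± 0.17 (SE, adjusted p = 0.304), and its partner Stat2 gave -0.09 ± 0.09 (SE, adjusted p = 0.641) with -0.23 on a second probe set. Irf1, induced chiefly by interferon gamma, gave -0.12 ± 0.09 (SE, adjusted p = 0.506).

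No interferon-inducible GTPase with a probe set of its own was called, for 7 of 8 measured, and their median log2 difference was -0.05. These proteins attack the membranes around intracellular pathogens. Gbp7 was farthest from 0, with log2 values of 6.65, 6.45 and 5.98 in Sod2-/- and 7.15, 7.51, 6.88 and 7.03 in Sod2+/+ erythroblasts. Its genotypes did not overlap, and the difference was -0.78 ± 0.18 (SE, adjusted p = 0.058), with -0.48 on its second probe set. Irgm1, a regulator of the other immunity-related GTPases, gave -0.46 ± 0.11 (SE, adjusted p = 0.0655). The log2 differences of Igtp, Gbp3, Gbp2, Iigp1 and Irgm2 were between -0.11 and 0.08.

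The probe set shared by Tgtp1 and Tgtp2 contrasts with Igtp and Irgm2, whose promoter stretches resemble that of Tgtp1 above. The shared probe set had log2 values of 6.40, 6.41 and 7.00 in Sod2-/- and 8.01, 8.04, 7.54 and 7.66 in Sod2+/+ erythroblasts. All Sod2-/- values were below all Sod2+/+ values, with a difference of -1.21 ± 0.18 (SE, 2.31-fold lower, adjusted p = 0.0203), and which of the neighbouring genes contributed cannot be told apart. Its adjusted p was 0.0736 without Sod2-/- array 35 and 0.0523 without Sod2+/+ array 29. Igtp had log2 values of 7.53, 7.53 and 8.09 in Sod2-/- and 8.00, 7.90, 7.61 and 7.76 in Sod2+/+ erythroblasts, overlapping, with a difference of -0.11 ± 0.15 (SE, adjusted p = 0.765). For Irgm2 the difference was 0.08 ± 0.14 (SE, adjusted p = 0.823).

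The 6 enzymes of ubiquitin, ISG15 and ADP-ribose modification had a median log2 difference of -0.41, and none was called. Usp18, which removes ISG15 from proteins and restrains signalling at the type I receptor, had log2 values of 6.59, 5.81 and 5.81 in Sod2-/- and 6.88, 6.96, 6.37 and 6.94 in Sod2+/+ erythroblasts. Sod2-/- array 31 lay above Sod2+/+ array 33, so the genotypes overlapped, and the difference was -0.72 ± 0.22 (SE, adjusted p = 0.11). Parp9 and its partner Dtx3l, an ADP-ribosyltransferase and a ubiquitin ligase encoded side by side on chromosome 16, gave -0.62 ± 0.15 (SE, adjusted p = 0.0668) and -0.44 ± 0.14 (SE, adjusted p = 0.133), without overlap for either. A second Dtx3l probe set gave -0.59 (adjusted p = 0.171), and on it the genotypes overlapped. Parp14 gave -0.38 ± 0.15 (SE) and, on a dimmer probe set, 0.26 (adjusted p = 0.0876). Trim25, the ubiquitin ligase that activates RIG-I, gave -0.31 ± 0.18 (SE).

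Herc6, which attaches ISG15 in mice, had the highest log2 difference of the set, 0.32 ± 0.12 (SE, adjusted p = 0.182). Its log2 values were 7.37, 7.56 and 7.04 in Sod2-/- and 7.07, 6.88, 6.97 and 7.08 in Sod2+/+ erythroblasts, and array 39 lay within the Sod2+/+ range. Its 3 dimmer probe sets gave -0.37, -0.21 and 0.19, so the direction depended on the probe set.

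Of the 5 other induced genes, 2 were lower, a galectin and a galectin-binding protein. Lgals9 (galectin-9), a secreted lectin that modulates lymphocytes, had log2 values of 7.74, 7.43 and 7.28 in Sod2-/- and 8.73, 8.81, 8.34 and 8.52 in Sod2+/+ erythroblasts. The genotypes were separated by a wide gap, and the difference was -1.11 ± 0.14 (SE, 2.17-fold lower, adjusted p = 0.013). Lgals3bp, the galectin-3 binding protein, had log2 values of 5.76, 5.78 and 5.96 in Sod2-/- and 6.78, 6.49, 6.54 and 6.53 in Sod2+/+ erythroblasts. This member had the lowest adjusted p of the set, 0.0114, at a difference of -0.75 ± 0.09 (SE, 1.68-fold lower). Both calls were lost only without Sod2-/- array 35 among the 7 arrays left out in turn, at adjusted p of 0.0549 for Lgals9 and 0.0512 for Lgals3bp. Rtp4, a chaperone of receptors, gave -0.40 ± 0.16 (SE, adjusted p = 0.205), Xaf1, a binding partner of the apoptosis inhibitor XIAP, gave -0.30 ± 0.09 (SE, adjusted p = 0.0986), and Ifi35 gave -0.15 ± 0.16 (SE).

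The ISRE core was found in 4 of the 7 called members with a promoter window (57.1%) and in 13 of 25 members that did not pass (52%). The GAS core was found in 2 of 7 (28.6%) and 10 of 25 (40%). The called and uncalled members thus carried the ISRE core in like shares, and no test of that difference was made.

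The members were next set beside the other genes of the interferon pathway, taken from lists by role that were also chosen with earlier results known. Of 99 such genes, 88 had a probe set of their own, 12 were lower and 0 higher (13.6% lower, against 4.47% of all genes), and their median log2 difference was -0.20. The lower genes were other interferon-responsive genes (7 of 37), components of antigen processing (3 of 12), 1 of 10 JAK-STAT genes and 1 of 4 interferon regulatory factor (IRF) repressors and lineage factors. None of 5 interferon ligands, 6 receptors or 14 genes of the induction pathway was called. Leaving out Sod2-/- array 35 or Sod2+/+ array 37 left 2 lower pathway genes, and leaving out Sod2+/+ array 29 left 4.

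The ligands had a median log2 difference of 0.11. Ifnb1 (interferon beta) gave 0.11 ± 0.10 (SE), and Ifng (interferon gamma), below the median of all probe sets, gave -0.07 ± 0.07 (SE). Among the receptors, Ifnar2, a chain of the type I interferon receptor, had log2 values of 8.25, 7.77 and 8.60 in Sod2-/- and 7.61, 7.50, 7.27 and 7.71 in Sod2+/+ erythroblasts. All Sod2-/- values lay above the Sod2+/+ values. The difference of 0.69 ± 0.18 (SE) did not pass on the deposited values (adjusted p = 0.0801), but did after quantile normalization, at 0.93 (adjusted p = 0.0213). Within chip lot A, which held Sod2-/- array 35 and the 4 Sod2+/+ arrays, the difference was 0.25. The partner chain Ifnar1 gave 0.09 ± 0.14 (SE), and the interferon gamma receptor chains Ifngr1 and Ifngr2 gave -0.27 ± 0.12 (SE) and 0.22 ± 0.16 (SE), none past the threshold. The kinases Jak1 and Tyk2 gave 0.12 ± 0.13 (SE) and -0.15 ± 0.13 (SE).

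Ptpn2, a phosphatase that dephosphorylates JAK and STAT proteins, was lower, with log2 values of 7.87, 7.81 and 7.83 in Sod2-/- and 8.12, 8.32, 8.21 and 8.21 in Sod2+/+ erythroblasts. Its difference of -0.38 ± 0.07 (SE, adjusted p = 0.0291) was -0.12 (adjusted p = 0.456) after quantile normalization. Irf2, a repressor that competes for the ISRE, was lower by -0.80 ± 0.16 (SE, adjusted p = 0.0362), with log2 values of 4.33, 4.20 and 3.63 in Sod2-/- and 4.74, 4.91, 4.77 and 4.98 in Sod2+/+ erythroblasts. The genotypes did not overlap for either gene.

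Nmi, a partner of STAT proteins and of the member Ifi35, was the most separated pathway gene, with log2 values of 5.50, 5.46 and 5.36 in Sod2-/- and 6.08, 6.15, 6.10 and 6.25 in Sod2+/+ erythroblasts. The values of each genotype lay close together, and the difference was -0.70 ± 0.07 (SE, 1.63-fold lower, adjusted p = 0.00612). Its call survived the removal of any single array. The other lower responsive genes were Trim34a (-1.05), Ifi27 (-0.99), Ly6e (-0.92), the GTPase Ifi47 (-0.76), Sp100 (-0.58) and Trim21 (-0.41), with adjusted p from 0.0155 to 0.0411. These genes kept their calls in 1 to 5 of the 7 removals of a single array.

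All 12 measured genes of antigen processing and presentation had log2 differences below 0, with a median of -0.47. Of all genes 45.8% were below 0, and of genes above the median of all probe sets, where 10 of the 12 lay, 54.3% were. H2-K1, H2-D1, Tap1, Tap2, Tapbp, Psmb8 and Psmb9 all lie on chromosome 17. The genes called lower among the 12 were the proteasome activator subunit Psme1 (-0.83 ± 0.11, SE, adjusted p = 0.0138), the peptide transporter Tap1 (-0.65 ± 0.11, SE, adjusted p = 0.027) and the immunoproteasome subunit Psmb9 (-0.59 ± 0.12, SE, adjusted p = 0.0404). Psme1 had log2 values of 8.11, 7.73 and 8.10 in Sod2-/- and 8.83, 8.94, 8.68 and 8.80 in Sod2+/+ erythroblasts. The call of Psme1 survived the removal of any single array, and all its Sod2-/- values lay below all its Sod2+/+ values. Tap1 and Psmb9 each kept their call in only 2 of the 7 removals of a single array. Psmb9 also lost its call after quantile normalization (adjusted p = 0.0848).

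**Figure D3:**
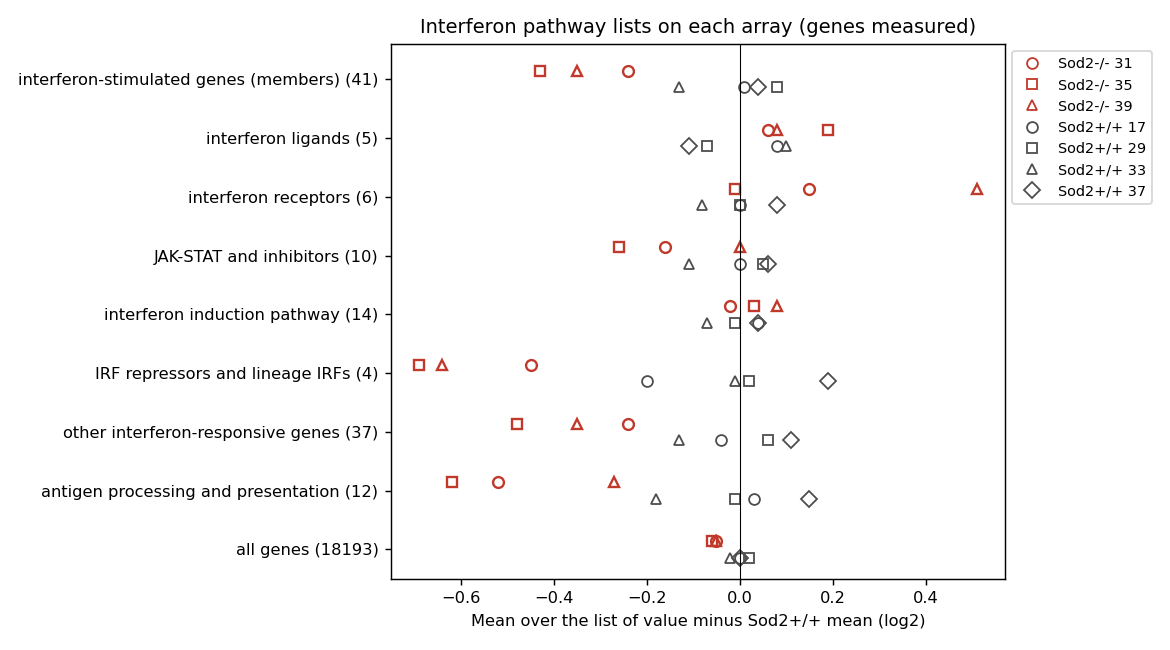
Mean over each list, on each array, of the log2 value minus the Sod2+/+ mean of the gene, with the number of measured genes in parentheses and red symbols for Sod2-/- arrays, grey for Sod2+/+ arrays. The interferon-stimulated genes, the IRF list, the other responsive genes and the antigen processing genes stand below 0 on all 3 Sod2-/- arrays, the ligands lie between -0.11 and 0.19, and the receptors reach 0.51 on Sod2-/- array 39.

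The size of the differences depended on the scaling of the arrays. After quantile normalization of the deposited values the median log2 difference of the members was -0.12, against -0.30 as deposited, while that of all genes was 0.01, against 0.02. The difference was higher than on the deposited values for 35 of 41 members, and 5 members changed sign from below to above 0. The median shift of the members was 0.15, against 0.07 for all genes above the median of all probe sets. The 7 members that kept their call were Ifit1, Lgals9, Irf8, Ifih1, Lgals3bp, Dhx58 and Oasl1, and 2.78% of all genes were lower under this scaling. Ifitm3 lost its call (-0.63, adjusted p = 0.061). Of the pathway genes, 9 were lower under this scaling, and Ptpn2, Trim21 and Psmb9 lost their calls.

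**Figure D4:**
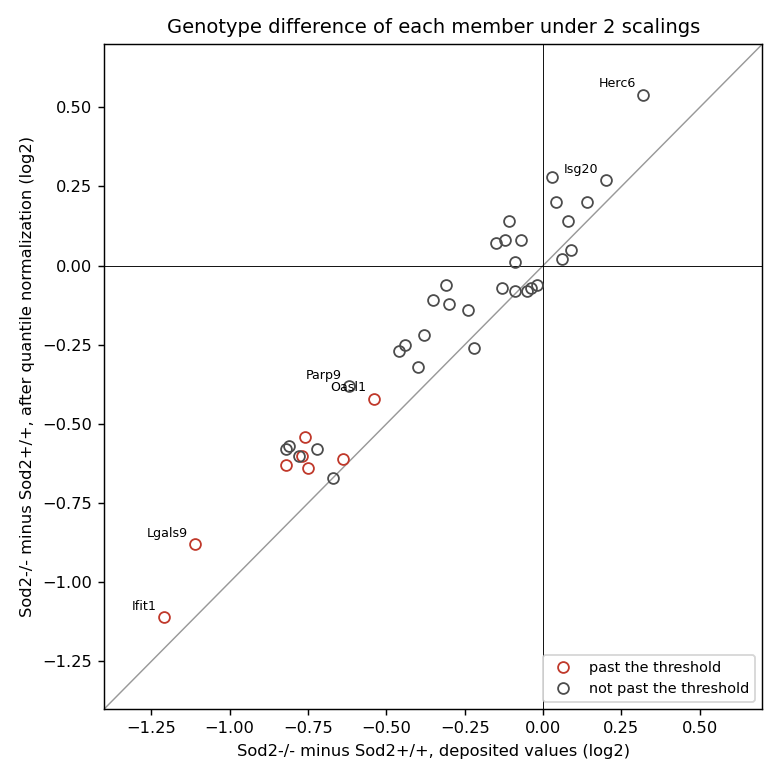
Log2 difference (Sod2-/- minus Sod2+/+) of each of the 41 members on the deposited values, on the horizontal axis, and after quantile normalization, on the vertical axis. Red circles are members past the threshold on the deposited values, grey circles the others, and the diagonal marks equal values. Most circles lie above the diagonal, and Ifit1 and Lgals9 are lowest on both axes.

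The labelled cell type and the cells that the gate could also hold were examined through their markers. Erythroid markers were abundant, with a summed linear level of 58925 to 65529 in Sod2-/- and 57332 to 59228 in Sod2+/+ erythroblasts. Of these markers 1 of 16 was higher, against 0.412% of all genes. B cell markers were lower for 9 of 17 and eosinophil and mast cell markers for 3 of 10, against 4.47% of all genes. The summed level of B cell markers was 669 to 819 in Sod2-/- against 1184 to 1410 in Sod2+/+. That of eosinophil and mast cell markers was 539 to 771 in Sod2-/- against 1173 to 2394 in Sod2+/+. None of 13 neutrophil markers was called. All 13 were below 0, against 45.8% of all genes and 54.3% of genes above the median of all probe sets. The summed level of neutrophil markers was 35004, 16761 and 23230 in Sod2-/- arrays 31, 35 and 39, against 35229 to 44154 in Sod2+/+. RMA values, the deposited log2 values, carry no zeros, and S100a9, an abundant protein of neutrophils, had log2 values of 12.17 to 13.03 in Sod2-/- and 12.95 to 13.27 in Sod2+/+ erythroblasts. Array 35, the lowest in neutrophil markers, was also the lowest in the mean of the members. Among the arrays of station 1 the median difference of neutrophil markers was -0.12 and that of the members -0.22, and among those of station 2 they were -1.30 and -0.27.

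Macrophage and monocyte markers (18, none called), T and NK cell markers (14, none called) and megakaryocyte markers (9, none called) had summed levels of 2145 to 4187, 594 to 684 and 390 to 421 in Sod2-/-, against 3351 to 4549, 643 to 714 and 406 to 471 in Sod2+/+ erythroblasts. Of 13 dendritic cell markers, 2 were lower, Tcf4 and Irf8 (15.4%, against 4.47% of all genes). Irf8 is also 1 of the 8 called members, so that call is counted in both lists. Of the 13 markers, 4 were below 0 and 9 above, against 45.8% of all genes below 0. The summed level of the 13 was 450 to 596 in Sod2-/- against 493 to 555 in Sod2+/+, and that list holds the members Irf8 and Bst2. Sod2-/- array 39 stood apart in some of these markers. The complement genes C1qa, C1qb and C1qc had log2 values of 7.65, 8.09 and 8.33 on that array, against 3.75 to 4.68 on the other 6 arrays, and the dendritic cell marker Itgax had 6.94, against 4.22 to 4.55. Averaged over the 18 macrophage and monocyte markers, the deviation from the Sod2+/+ mean was -0.02, -0.14 and 0.85 on Sod2-/- arrays 31, 35 and 39. Without array 39, 4 members were called lower. The part of these cell types in the lower values of the interferon-stimulated genes was not tested.

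Sod2 itself did not check the genotype labels. The log2 values of its brightest probe set were 8.47, 8.09 and 8.61 in Sod2-/- and 8.32, 8.62, 8.20 and 8.59 in Sod2+/+ erythroblasts, and by the study's own account some probe sets of this gene lie outside the deleted exon. RNA integrity, measured as the log2 difference between the 3′ and 5′ control probe sets, averaged 1.14 in Sod2-/- and 1.32 in Sod2+/+ erythroblasts for Gapdh (exact two-sided permutation test, p = 0.0571). For Actb it averaged 0.72 in Sod2-/- and 0.75 in Sod2+/+ erythroblasts (p = 0.857 by the same exact test). The Gapdh values were 1.10 to 1.21 in Sod2-/- and 1.24 to 1.45 in Sod2+/+ erythroblasts, without overlap. With 35 splits, 0.0571 is the smallest p that this two-sided permutation test allows. All arrays were scanned on 1 day. The 4 Sod2+/+ arrays and Sod2-/- array 35 were of chip lot A and Sod2-/- arrays 31 and 39 of lot B. Array 35 was thus the only Sod2-/- array in a lot shared with Sod2+/+ arrays. Under a chip lot block the genotype difference therefore rested on array 35 against the 4 Sod2+/+ arrays. With chip lot as a block, 4 members were lower (Ifit1, Lgals9, Irf8 and Lgals3bp), and 2.54% of all genes. Within station 1 and within station 2, limma called 0 members and 0 of all genes, with 14 and 15 members lower at an unadjusted p under 0.05, against 8.34% and 13.3% of all genes.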

How the data were processed

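RNA of sorted erythroblasts was labelled in a single round and hybridized to 7 arrays. The deposited log2 values were made by the authors by robust multi-array averaging (RMA); the submitters' processing notes also name GCOS 1.3.037. The settings files deposited with the arrays gave each array's chip lot and fluidics station. The values were used without further normalization. Of 45101 probe sets, 64 controls were left out and 45037 tested; the annotation assigns 34945 to 1 gene, 932 to several and 9160 to none, and the RefSeq table held 99.1% of its gene identifiers. Raw intensities, a further Sod2-/- array and further results of the study were not used here.

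Genotypes were compared in R 4.3.3 with limma 3.58.1. The linear model held genotype alone, variances were moderated by eBayes, and p-values were adjusted by Benjamini-Hochberg over the 45037 probe sets. Every adjusted p is from limma. SE is the standard error of the difference with limma's moderated variance, and the procedure was tested on simulated data. The version of statmod was 1.5.0. Promoter windows, 300 bases long, came from RefSeq GRCm38.p6. Precision is limited by the number of arrays.

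The members and all gene lists were chosen with earlier results of these data known. Values of every array were to be given for members past the threshold at 1.5-fold and for the member farthest from 0 in each role group; pathway genes were to be named where called, with Jak1, Tyk2, Ifnar1, Ifnar2, Ifngr1, Ifngr2 and Irf2 in any case; other genes with values of every array were chosen after their values were seen. Alternatives were quantile normalization, centring on array medians, bright probe sets alone (log2 mean above 4.48), an offset of 32, trend and robust eBayes, array weights, the methods' t-test, averaging the probe sets of each gene, station or chip lot as a block, each station alone, and leaving out each array. Chip lot A alone was added after seeing the data.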

Additional observations from a re-analysis of the deposited data

Results flagged for a closer look

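In the Sod2+/+ group, which has 4 arrays, the gap of the highest or lowest array to its neighbour was compared with the range of the group for the 41 members, and 3 reached or exceeded Dixon's critical value of 0.829. Usp18, the protease that removes ISG15, had its lowest value of 6.37 on Sod2+/+ array 33, with the others from 6.88 to 6.96 (gap over range 0.862). Mx1, a dim member, had its highest value of 3.77 on Sod2+/+ array 37, with the others from 3.51 to 3.55 (0.835). Lgals3bp, lower in Sod2-/- erythroblasts, had its highest value of 6.78 on Sod2+/+ array 17, with the others from 6.49 to 6.54 (0.829), and its adjusted p without that array was 0.0196 by limma. Chance exceeds this value in about 1 in 20 groups. The 3 Sod2-/- arrays are too few for this comparison.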

How the results depend on the processing

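In all 20 alternatives 0 members were higher. The count of 8 lower members became 7 after quantile normalization (2.78% of all genes lower) or centring (4.35%). Array weights (3.79%) and averaging of all probe sets of a gene (4.11%) also gave 7. With station as a block it was 8 (2.7%), and 6 of them were among the original 8. Oasl1 and Ifitm3 were lost under that block, and Gbp7 and Parp9 were added. Trend and robust eBayes gave 10 (4.47%), and bright probe sets alone gave 14 of 35 (11.1% of genes). An offset of 32 gave 2 (0.649%). Chip lot as a block gave 4 (2.54%), with a genotype difference that rested on Sod2-/- array 35. Chip lot A alone, chosen after seeing the data, set that array against the Sod2+/+ arrays. The methods' t-test called 0, and 0.011% of all genes lower (16 members lower and 1 higher at an unadjusted p under 0.05, against 13.5% and 5.99% of all genes). Within station 1 and station 2 limma called 0 members and 0 of all genes. Leaving out each array gave 0 to 10. The median difference of the members, -0.30, was -0.12 after quantile normalization, -0.45 with chip lot as a block and within lot A, and -0.34 to -0.22 without each array. The 12 lower pathway genes became 5 with the offset, 7 with chip lot as a block or within lot A, and 0 under the t-test (26 at an unadjusted p under 0.05) and within station 1 and station 2 (22 and 26 at an unadjusted p under 0.05), and 2 to 11 without each array. Pathway genes higher, 0 on the deposited values, were 3 after quantile normalization (Ifnar2, Tbk1 and Uba7) and 1 among bright probe sets alone. The cause of these changes was not tested. Lgals9 lost its call under 4 alternatives, Lgals3bp under 5, Ifit1 under 6, Irf8 under 7, Ifih1 under 11, Dhx58 under 12, Oasl1 under 13 and Ifitm3 under 15. Gbp7, Irf7, Irgm1, Oas3, Oasl2, Parp9 and Usp18 passed under at least 1 alternative and not on the deposited values. No called member changed sign, and 15 uncalled members did under at least 1 alternative. No paired analysis was possible because the genotypes share no replicate number, and the labels do not say which samples were sorted side by side. The number of arrays and the low signal of the 6 dim members limit what could be detected.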
